A study of Homo sapiens with 24 samples.

Results

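The 48 genes described here make up the machinery that copies DNA and the controls of entry into S phase, and they were listed by gene symbol, with earlier results of these data known. Rows of the deposited expression table were matched through their Ensembl identifiers to GENCODE v29 symbols, and all 48 genes were found among 58024 rows. They fall into 14 origin licensing genes, 6 helicase activation genes, 6 sliding clamp and clamp loader genes, 9 polymerase and primase genes, 5 genes of single-stranded DNA binding and fragment maturation, 4 nucleotide supply genes and 4 regulators of the G1/S transition. All 48 passed the filter for testing, a mean of at least 0.5 FPKM over all libraries. FPKM is the number of sequenced fragments scaled to transcript length and to the fragments of the library.

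The libraries came from Huh7, an established human hepatoma cell line, either wild type (WT) or knocked out for ABHD6 (KO), a lipase that hydrolyses monoacylglycerol. In each genotype, cells were in basal medium (0 h) or had 800 µM palmitic acid, a saturated fatty acid, for 24 h or 48 h, with 4 libraries in each of the 6 groups and 24 in all. No group was kept untreated for 24 h or 48 h, so the effect of the fatty acid and that of time in culture cannot be told apart, and the treatment protocol gives a harvest on day 1 while the sample titles give 24 and 48. The sources used here give neither the way ABHD6 was disrupted nor the number of clones. ABHD6 was above 0 in only 7 of 24 libraries, with a highest value of 1.16 FPKM, which is too low to check the genotype labels.

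Before S phase, the origin recognition complex (ORC1 to ORC6) with CDC6 and CDT1 loads rings of MCM2 to MCM7 onto DNA, a step called licensing. CDC45 and the GINS proteins turn the rings into running helicases, primase and the polymerases alpha, delta and epsilon copy the strands, and the clamp PCNA holds polymerase on the template. Ribonucleotide reductase, thymidylate synthase and thymidine kinase supply the deoxynucleotides, and many of these genes are transcribed through E2F factors as cells pass from G1 into S phase.

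The values rest on few fragments and on an unknown strand setting. Steps between the lowest values placed the number of fragments behind each library at 396825 to 735294, so that 1 fragment on a 3 kb transcript equalled 0.453 to 0.84 FPKM. Rows with an antisense annotation took up 44.0% to 58.1% of each library's total FPKM. The library kit marks strand but the sources used here do not give the counting setting. If the setting was opposite to the kit, a row would hold stray fragments of its own gene, and fragments of a member would appear in the row of a gene annotated on the other strand. Exons of 17 members overlap those of an opposite-strand gene and those of 31 do not. Between 0 h and the later times, the antisense share went from 56.1% to 58.1% down to 44.0% to 48.8%, and the summed FPKM went from 1031361 to 1213284 down to 748252 to 995833. The mitochondrial share of the total FPKM went from 3.2% to 4.43% up to 10.4% to 14.95% in every later library. The part of these shifts in the results below was not tested.

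All 11 hepatoma markers examined were present in every library. Among markers of other cell types, the summed level of 4 immune genes was 79.9 to 160 FPKM in WT and 149.8 to 219 in KO at 0 h, 148.8 to 194 and 149.8 to 213 at 24 h, and 177.5 to 307 and 229 to 337.5 at 48 h. Most of that sum was LYZ (mean 183 FPKM, above 0 in all 24), with CD68 above 0 in 21, CD14 in 14 and PTPRC, the common leukocyte marker, in 3. The 4 bile duct markers summed to 12.2 to 23.3 FPKM at 0 h and 17.7 to 52.5 later, with SOX9 above 0 in all 24 libraries, EPCAM in 21, KRT19 in 6 and KRT7 in none. Of 3 endothelial markers PECAM1 was above 0 in all 24 (mean 5.28 FPKM, summed range 0.462 to 18.04), while VWF and KDR were at 0 throughout. The 5 fibroblast markers summed to 0 to 10.1 FPKM, with DCN at 0 throughout. The part of these markers in the results was not tested.

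Promoters are shown for 4 of the called members described below, since E2F and CCAAT-binding factors are textbook regulators of S-phase genes. Each is the 250 bases before the RefSeq transcription start (GRCh38.p14), 5′ to 3′ on the strand of the gene. Capitals mark 3 words on either strand. TTCCCGC, which reads GCGGGAA on the other strand, is typical of E2F sites. The word TTGGCGC, which reads GCGCCAA on the other strand, is a further form of E2F site. CCAAT, which reads ATTGG on the other strand, is the core of the CCAAT box.
MCM3, chr6:52284743-52284992, minus strand: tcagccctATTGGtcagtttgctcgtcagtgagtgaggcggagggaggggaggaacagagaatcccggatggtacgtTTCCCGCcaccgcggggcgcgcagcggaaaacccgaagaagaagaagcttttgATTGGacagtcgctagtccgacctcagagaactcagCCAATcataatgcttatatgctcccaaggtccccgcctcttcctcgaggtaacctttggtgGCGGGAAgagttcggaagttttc
LIG1, chr19:48170345-48170594, minus strand: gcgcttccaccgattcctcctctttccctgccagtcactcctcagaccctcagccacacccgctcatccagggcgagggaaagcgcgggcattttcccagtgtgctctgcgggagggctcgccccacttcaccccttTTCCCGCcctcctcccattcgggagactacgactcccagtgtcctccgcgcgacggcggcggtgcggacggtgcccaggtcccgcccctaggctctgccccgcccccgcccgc
RRM2, chr2:10122489-10122738, plus strand: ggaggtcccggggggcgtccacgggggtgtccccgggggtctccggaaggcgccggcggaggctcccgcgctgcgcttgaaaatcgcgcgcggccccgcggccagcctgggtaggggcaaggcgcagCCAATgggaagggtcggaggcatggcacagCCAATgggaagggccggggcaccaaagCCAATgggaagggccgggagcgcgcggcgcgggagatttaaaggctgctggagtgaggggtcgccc
TYMS, chr18:657403-657652, plus strand: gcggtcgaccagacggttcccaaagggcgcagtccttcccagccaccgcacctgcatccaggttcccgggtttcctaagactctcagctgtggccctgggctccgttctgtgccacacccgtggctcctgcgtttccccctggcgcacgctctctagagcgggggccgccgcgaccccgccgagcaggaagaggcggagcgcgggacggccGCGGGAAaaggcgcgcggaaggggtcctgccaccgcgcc
The MCM3 promoter held 2 E2F-type matches, which began 173 and 23 bases before the start, and 3 CCAAT matches. LIG1 held 1 E2F-type match at 113 bases and TYMS held 1 at 39 bases, while RRM2 held 3 CCAAT matches and no E2F-type match. Of the called members not shown, MCM2 and ORC5 held none of the 3 words. POLD2 held 1 CCAAT match and no E2F-type match, and MCM5 had no matched promoter. A link between matches and changes was not tested. RefSeq promoters were matched for 41 of the 48 members. Either E2F-type word was present in 19 of those 41 (46.3%), against 7.95% of all 27303 promoters of the same length. CCAAT was present in 24 of 41 (58.5%), against 33% of all promoters. In a list of 25 mitosis and G2/M genes, of which 20 matched, the E2F-type words were in 15% and CCAAT in 80%. A match is a run of letters and was not tested as a binding site.

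Values in the rows of the 48 members were low, and how far they reflect expression depends on the unknown strand setting. The median of their means over 24 libraries was 5.73 FPKM. Of the 48, 28 averaged at least 5 FPKM and 7 averaged at least 20 FPKM, and 26 were above 0 in every library. Levels per length were highest for TYMS (64.5 FPKM), the thymidylate synthase gene, and FEN1 (63.4 FPKM), the nuclease that trims Okazaki fragments. The highest members of the other groups were MCM7 (34.7 FPKM, licensing), RFC5 (34.1 FPKM, clamp loader), GINS3 (13.7 FPKM, helicase activation), CCNE2 (11.4 FPKM, the G1/S cyclin E2) and PRIM1 (8.46 FPKM, primase). At the low end, ORC1 averaged 0.59 FPKM and was at 0 in 10 libraries, and the cyclin E1 gene CCNE1 was at 0 in 15.

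Few of the 48 genes were called in any comparison, and a gene without a call was not shown to be unchanged. MCM3 was called in all 4 comparisons against 0 h, MCM2 in KO at both times and MCM5 in WT at 48 h. Of 8 fits that each left out 1 library, the MCM2 call at 24 h held in 2 and the MCM5 call in 1. The 2 comparisons of a genotype share its libraries at 0 h. In KO at 48 h, the nucleotide supply genes RRM2 and TYMS were also called. Whether calls favoured any class of members was not tested. The threshold for a call was an adjusted p (Benjamini-Hochberg, 0.05) in a limma fit of all 17252 genes tested. From 0 h to 24 h in WT, 3 of 48 members were called (MCM3 and POLD2 lower, ORC5 higher), where 4.06% of all genes tested were called. From 0 h to 48 h in WT, 2 of 48 were called (MCM3 and MCM5 lower), against 6.79% of all genes. In KO, 2 of 48 were called at 24 h (MCM2 and MCM3 lower), against 5.64%, and 5 of 48 at 48 h (MCM2, MCM3, LIG1, RRM2 and TYMS lower), against 9.82%. Each of these shares is near that of all genes. At an unadjusted limma p under 0.05, the members numbered 11 and 8 of 48 in WT (24 h, 48 h) and 9 and 17 in KO. Of all 17252 genes tested, 2733 and 3239 in WT and 3075 and 3748 in KO were under that p. Counted by whether the 4 libraries of a group all lay beyond the 4 at 0 h, members without overlap and lower were 10 in WT at 24 h (5.55% of all genes tested), 3 in WT at 48 h (6.69%), 3 in KO at 24 h (6.67%) and 7 in KO at 48 h (8.97%). Those without overlap and higher were 1 (3.66%), 0 (5.01%), 2 (4.48%) and 1 (6.25%) in the same order. The replicates are libraries that nothing in the labels ties to separate cultures, and the p-values then reflect only the spread among the libraries at hand, which may be technical. In bulk RNA, fewer cells in S phase and less RNA per cell cannot be told apart.

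**Figure D1:**
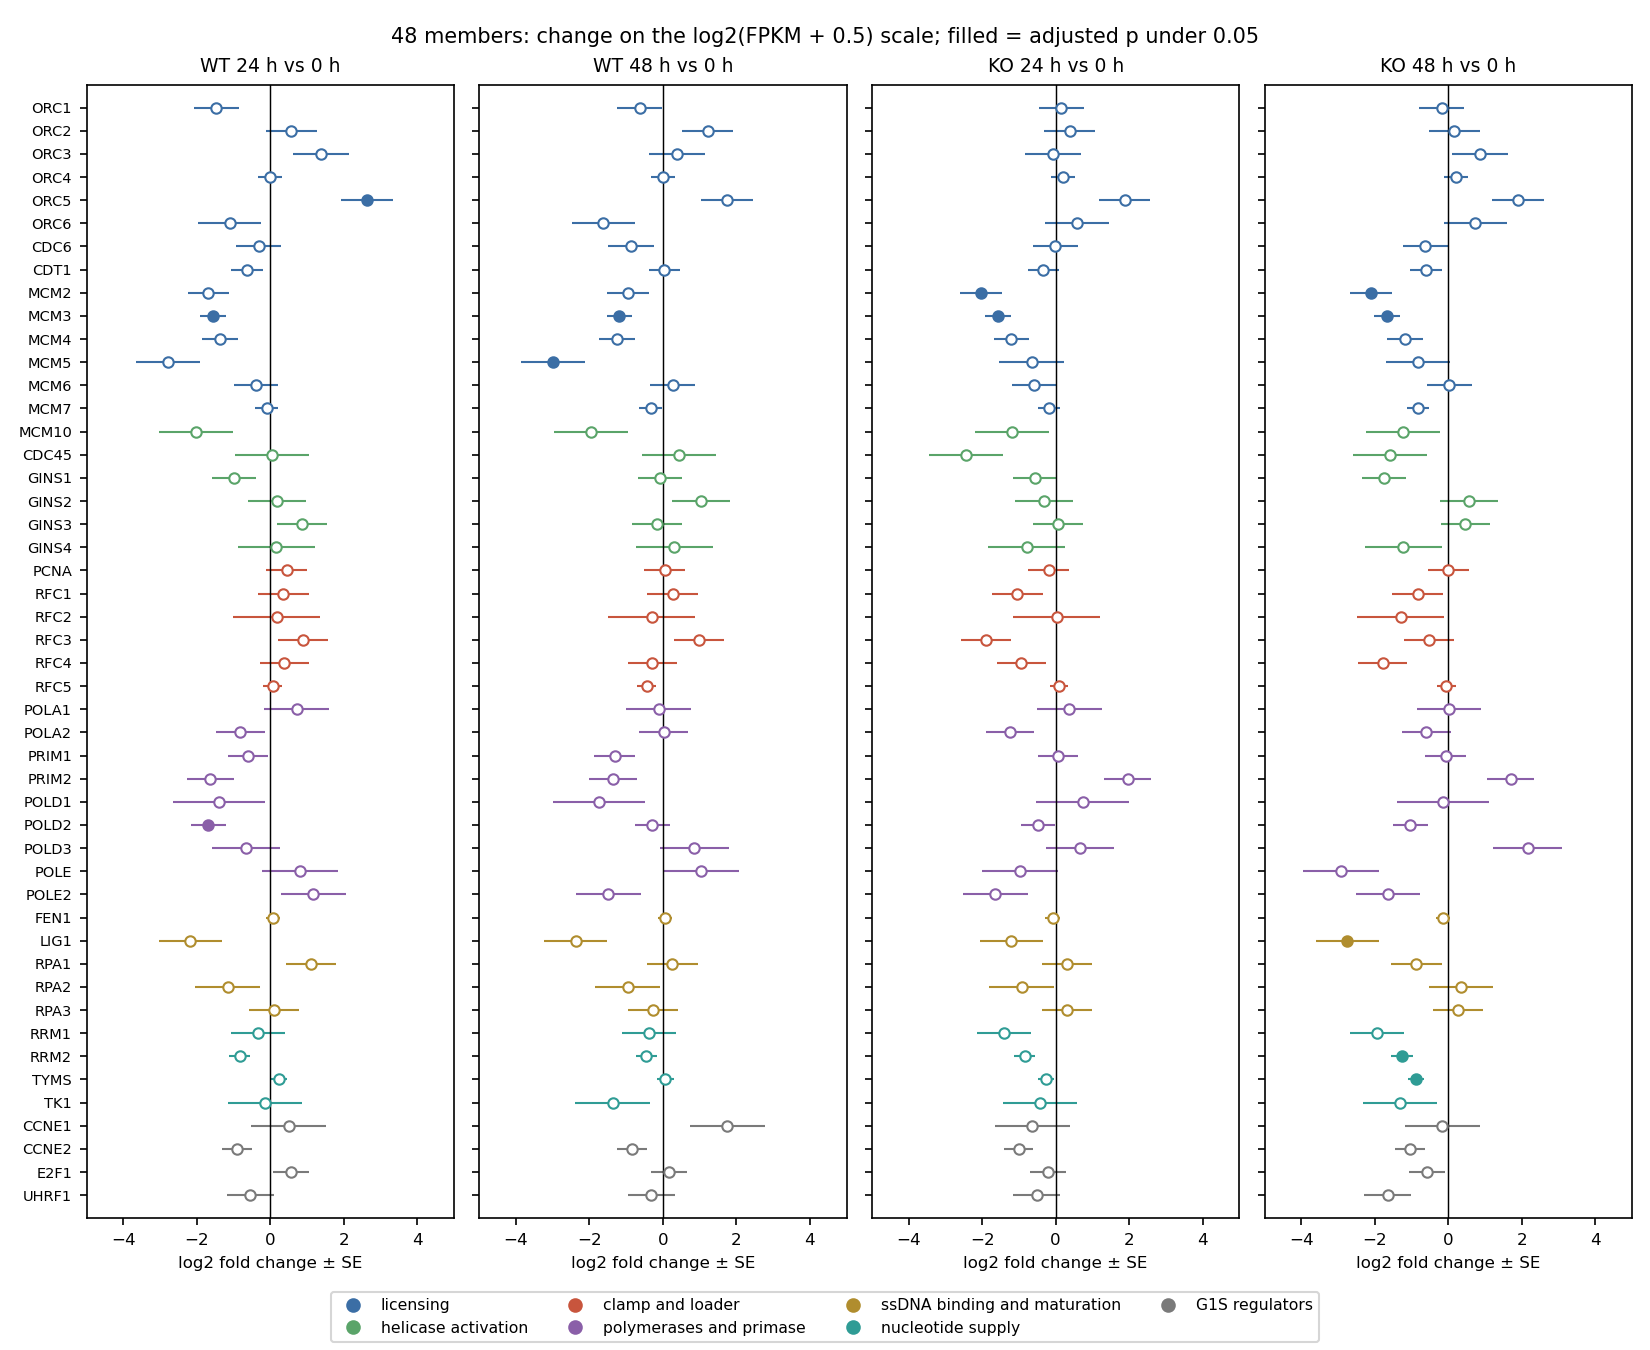
Change of each of the 48 members against 0 h of the same genotype, as log2 fold change on the log2(FPKM + 0.5) scale (x axis, bars are ± SE), coloured by role and filled where the adjusted p is under 0.05. Filled points number 3 in WT at 24 h, 2 in WT at 48 h, 2 in KO at 24 h and 5 in KO at 48 h, and MCM3 is filled in all 4 panels.

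Against 0 h, the median change of the 48 members in WT was -0.12 at 24 h and -0.28 at 48 h on the log2 scale. In KO the medians were -0.38 and -0.61, where the median of all genes tested was 0. For the 28 members that averaged 5 FPKM or more, the medians were -0.62 and -0.35 in WT and -0.53 and -0.85 in KO, and over all genes at that level they were -0.07 and -0.09 in WT and -0.08 and -0.14 in KO. When the libraries were rescaled by median-of-ratios the members' medians became -0.02 and -0.16 in WT, and -0.29 and -0.46 in KO. The medians of all genes tested rose too, to 0.053 and 0.097 in WT and 0.049 and 0.11 in KO. The 2 later groups of each genotype share the same 4 libraries at 0 h, so their values stand side by side and are not independent.

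Among licensing genes, MCM3, a subunit of the MCM2 to MCM7 ring, was lower than at 0 h in all 4 comparisons. In WT its 4 libraries (replicates 0 to 3) read 23.9, 37.7, 36.3 and 45.2 FPKM at 0 h, 8.92, 10.4, 11.3 and 16.8 at 24 h, then 14.1, 11.9, 27.1 and 11.3 at 48 h. In KO they read 48.3, 16.7, 39.7 and 29.9 FPKM at 0 h, 12.4, 6.63, 11.9 and 11.3 at 24 h, then 6.26, 10.4, 11.1 and 11.5 at 48 h. The libraries at 24 h in both genotypes, and at 48 h in KO, all lay below every library at 0 h of the same genotype, whereas in WT at 48 h replicate 2 overlapped the range at 0 h. By limma, the WT changes were -1.56 ± 0.35 at 24 h (log2 ± SE, adjusted p = 0.0102) and -1.19 ± 0.35 at 48 h (adjusted p = 0.0408). The KO changes were -1.56 ± 0.35 (adjusted p = 0.00752) and -1.66 ± 0.35 (adjusted p = 0.00237). The call in WT at 24 h and that in KO at 48 h held without each library in turn and under all 10 other settings, and that in KO at 24 h without each library and under 9 of 10. The call in WT at 48 h held in only 2 of 8 such omissions, those of WT 0 h replicate 0 and WT 48 h replicate 2, with adjusted p up to 0.118. MCM3 (chromosome 6, 52264009 to 52284881 on GRCh38, GENCODE v29) overlaps no opposite-strand exon, and its values correspond to about 30.4 to 69.7 fragments per library at 0 h in WT and 13.7 to 26.8 at 48 h in KO.

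MCM2, another ring subunit, fell in KO at both times and passed the test at neither time in WT. Its KO libraries read 46.6, 43.7, 19.9 and 34.7 FPKM at 0 h, 22.5, 3.51, 8.88 and 5.65 at 24 h, then 6.52, 3.63, 11.1 and 12.9 at 48 h. In WT it read 23.8, 36.0, 63.6 and 21.1 FPKM at 0 h, 4.96, 18.2, 7.504 and 13.6 at 24 h, then 28.2, 14.4, 32.4 and 5.89 at 48 h. Every KO library at 48 h lay below the lowest at 0 h, and so did every WT library at 24 h, while the other later groups overlapped 0 h. In KO the change was -2.03 ± 0.57 at 24 h (adjusted p = 0.0349) and -2.09 ± 0.57 at 48 h (0.0183), against -1.68 ± 0.57 (0.110) in WT at 24 h. The difference in response between the genotypes did not pass the test for any member at either time. The 48 h call was lost without KO 0 h replicate 0 or 1 or KO 48 h replicate 1 (adjusted p up to 0.0790). The 24 h call held only without KO 0 h replicate 2 or KO 24 h replicate 0, with adjusted p up to 0.124 otherwise. Unlike MCM3, MCM2 overlaps opposite-strand exons. It shares 1113 bases with AC023593.1, which has no row, and 45 with TPRA1, which averaged 0.775 FPKM.

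MCM5, also a ring subunit, read 17.4, 15.2, 9.42 and 14.4 FPKM in WT at 0 h and 0, 0.929, 5.92 and 1.77 at 48 h. The 2 groups did not overlap, and the change was -2.99 ± 0.88 (adjusted p = 0.0403). That call held only when WT 48 h replicate 2 was left out, with adjusted p up to 0.150 without any other library. In KO, MCM5 was already spread from 1.21 to 11.9 FPKM at 0 h and from 0.327 to 6.62 at 48 h, and the groups overlapped. MCM4 read 24.6 to 38.4 FPKM in WT at 0 h and 5.85 to 18.2 at 24 h, without overlap, at a change of -1.37 ± 0.48 that missed the threshold (adjusted p = 0.129).

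MCM6 and MCM7 complete the ring. MCM7 averaged 39.2 ± 6.65 FPKM (SD, n = 4) in WT at 0 h, 36.6 ± 6.30 at 24 h and 34.8 ± 21.6 at 48 h, and in KO 39.6 ± 5.83, 35.3 ± 7.23 and 22.8 ± 7.20. These ranges overlapped 0 h in all later groups. MCM6, at 0.607 to 8.52 FPKM, overlapped 0 h in all 4 comparisons. Of the 6 ring genes, 4 had no overlap with 0 h in WT at 24 h, all lower, where 5.55% of all genes tested did not overlap and were lower. The same count was 1 in WT at 48 h (6.69%), 1 in KO at 24 h (6.67%) and 2 in KO at 48 h (8.97%), again all lower.

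The summed level of the 6 ring genes went from 162 ± 24.0 FPKM in WT at 0 h to 78.0 ± 12.6 at 24 h and 94.0 ± 44.9 at 48 h (SD, n = 4). In KO the sum went from 147 ± 18.3 to 73.0 ± 21.6 and 58.2 ± 14.5 FPKM. Every later library lay below all those at 0 h of its genotype except WT 48 h replicate 2, at 161 FPKM against 129 to 187 at 0 h. The 48 h sums were 58.1% of the 0 h mean in WT and 39.7% in KO, where the summed FPKM of all genes was 80.1% and 74.5%. For the sum of all 48 members the same share was 77.4% in WT, near that of all genes, and 59.6% in KO. The sum over the 25 mitosis and G2/M genes at 48 h was 41.6% of its own 0 h mean in WT and 37.6% in KO.

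Of the 6 origin recognition genes, 3 had a positive and 3 a negative change in WT at 24 h, and 5 had a positive change in KO at each time. The sum of ORC1 to ORC6 was 19.8 ± 4.94 FPKM in WT at 0 h, 23.5 ± 9.21 at 24 h and 21.2 ± 6.24 at 48 h, and in KO 19.0 ± 4.19, 24.9 ± 5.99 and 25.2 ± 3.65. ORC5, a subunit of the complex, was called higher in WT at 24 h (2.63 ± 0.70, adjusted p = 0.0330). It read 3.19, 0, 0 and 0 FPKM at 0 h and 11.04, 1.61, 6.54 and 3.45 at 24 h, which is about 2.1 to 13.4 fragments per library at 24 h, and the groups overlapped. The call held only without WT 0 h replicate 0 or WT 24 h replicate 1, with adjusted p up to 0.113 without any other library. The other origin recognition genes averaged 0.59 (ORC1), 4.65 (ORC2), 1.52 (ORC3), 8.63 (ORC4) and 4.07 FPKM (ORC6), and none was called. ORC1 was at 0.6999 to 1.58 FPKM in WT at 0 h and 0 to 0.548 at 24 h, without overlap (-1.47 ± 0.61, adjusted p = 0.219). ORC6 had changes of -1.10 ± 0.86 at 24 h and -1.63 ± 0.86 at 48 h in WT (adjusted p = 0.594 and 0.322), against 0.58 and 0.73 in KO. In KO, ORC5 was at 0 to 2.51 FPKM at 0 h and 2.66 to 4.70 at 24 h, without overlap, at 1.88 ± 0.70 (adjusted p = 0.131).

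The loading factors CDC6 and CDT1 were not called in any comparison. CDC6 lay between 0.863 and 12.2 FPKM over all libraries. CDT1 read 3.99 to 15.2 FPKM in WT at 0 h, 4.50 to 6.22 at 24 h and 6.43 to 11.2 at 48 h, so that its 24 h libraries lay below all those at 48 h (0.67 ± 0.43, adjusted p = 0.790), where 1.91% of all genes tested were higher at 48 h without overlap.

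**Figure D2:**
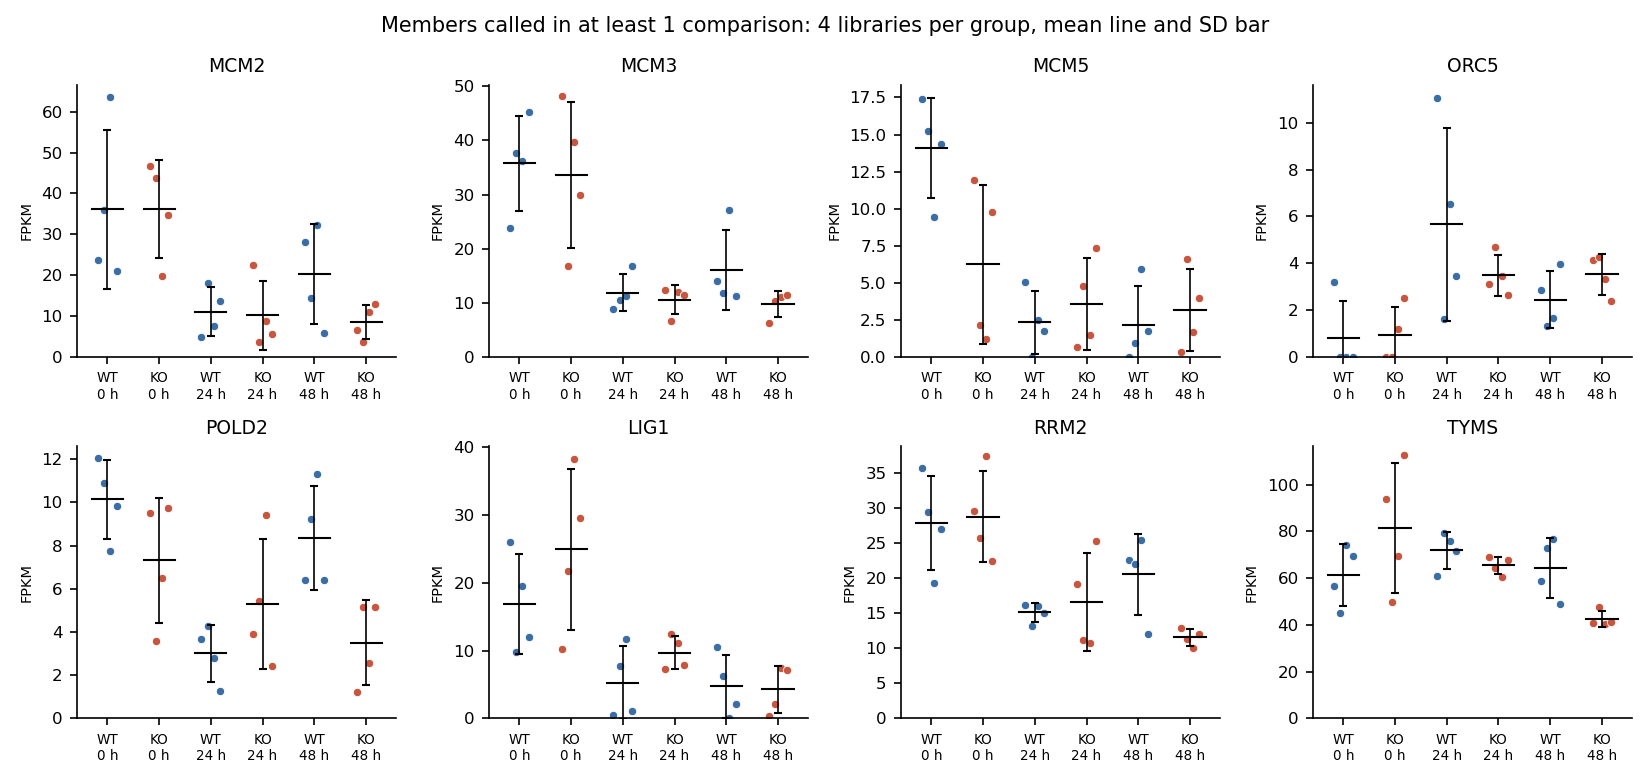
FPKM per library (points) with the group mean (line) and SD (bar, n = 4) for the 8 members called in at least 1 comparison, WT in blue and KO in red. MCM3 lies at 6.26 to 16.8 FPKM in 3 of the later groups against 16.7 to 48.3 at 0 h, and TYMS lies at 40.2 to 47.6 in KO at 48 h.

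Of the 6 helicase activation genes (MCM10, CDC45 and GINS1 to GINS4), none was called. GINS1, a subunit of the GINS complex, came closest, at -1.75 ± 0.60 in KO at 48 h (adjusted p = 0.0697), with 15.1, 12.1, 12.9 and 3.43 FPKM at 0 h and 8.90, 1.29, 2.25 and 1.27 at 48 h. MCM10, which helps to open the helicase, read 7.43 to 31.6 FPKM in WT at 0 h and 1.00 to 7.29 at 24 h without overlap, but its change of -2.02 ± 1.01 missed the threshold (adjusted p = 0.336). CDC45 did not overlap 0 h in KO at either time and was lower, at 4.46 to 9.19 FPKM at 0 h, 0 to 2.34 at 24 h and 0 to 4.36 at 48 h (adjusted p = 0.185 and 0.385). GINS3, the highest of the group, ranged from 2.84 to 36.5 FPKM with no group apart.

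None of the clamp and clamp loader genes was called. PCNA, the sliding clamp and a common marker of proliferating cells, was at 3.51 to 10.2 FPKM in WT at 0 h and 2.95 to 10.98 at 48 h, and at 3.98 to 17.7 and 3.42 to 12.3 in KO. RFC5, a loader subunit, was at 28.6 to 46.2 FPKM in WT at 0 h against 21.3 to 31.4 at 48 h, and 18.9 to 42.7 against 25.1 to 35.6 in KO. The loader subunits RFC1, RFC2, RFC3 and RFC4, which with RFC5 open the clamp, averaged 16.3, 3.70, 2.07 and 12.5 FPKM. The RFC5 libraries at 48 h in WT lay below all those at 24 h (-0.50 ± 0.25, adjusted p = 0.720), as did 1.87% of all genes tested.

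Of the 9 polymerase and primase genes, POLD2, the second subunit of polymerase delta, was the only member called. It read 12.1, 10.9, 7.75 and 9.84 FPKM in WT at 0 h, 3.69, 4.28, 2.78 and 1.26 at 24 h, then 6.43, 9.24, 11.3 and 6.40 at 48 h. The 24 h libraries lay below those of both other times. The change to 24 h was -1.68 ± 0.47 (adjusted p = 0.0438), and the difference between 48 h and 24 h was 1.39 ± 0.47 (adjusted p = 0.409). The call held only without WT 24 h replicate 1 among the 8 omissions and in 2 of 10 other settings, with adjusted p up to 0.153. In KO, POLD2 overlapped between all times, from 3.59 to 9.72 FPKM at 0 h to 1.20 to 5.14 at 48 h.

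The other polymerase genes varied widely between replicates. POLE, the catalytic subunit of polymerase epsilon, read 4.23 to 11.8 FPKM in KO at 0 h and 0 to 1.53 at 48 h, without overlap (-2.93 ± 1.04, adjusted p = 0.0795), while in WT it read 0.976 to 3.56 at 0 h and 0 to 21.9 at 48 h. PRIM2, the large primase subunit, stood at 2.97 to 9.84 FPKM in WT and 0 to 0.953 in KO at 0 h, a difference of -2.61 ± 0.64 with an unadjusted p of 5.1e-04 and an adjusted p of 0.190, where 1.31% of all genes tested were lower in KO without overlap. In KO, PRIM2 was higher at 24 h (1.956 to 4.79 FPKM) and at 48 h (1.22 to 6.30) without overlap, at adjusted p = 0.0783 and 0.106. In WT, PRIM2 was lower without overlap at 24 h (0 to 2.46 FPKM, -1.63 ± 0.64, adjusted p = 0.193) and at 48 h (0.598 to 2.50). Its KO values at 0 h correspond to about 0 to 0.9 fragments per library. POLE and the loader gene RFC3 were higher in KO than in WT at 0 h without overlap, as were 244 of 17252 genes tested. POLE2, the second subunit of polymerase epsilon, was listed at 0 in all 4 libraries of KO at 24 h and of both genotypes at 48 h. It was also at 0 in 2 of 4 libraries of each genotype at 0 h and in 1 of 4 in WT at 24 h. Its highest value corresponds to about 6.1 fragments, so these zeros lie at the limit of detection. The polymerase alpha subunits POLA1 and POLA2 averaged 2.62 and 5.70 FPKM, and the polymerase delta subunits POLD1 and POLD3 averaged 5.82 and 2.37. PRIM1 ranged from 1.19 to 20.1 FPKM and no group stood apart. The summed level of the 9 genes was 57.6 ± 7.51, 38.1 ± 14.5 and 43.0 ± 7.83 FPKM in WT at 0, 24 and 48 h, and 38.2 ± 6.34, 36.3 ± 6.09 and 26.7 ± 5.86 in KO.

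In the group of single-stranded DNA binding and fragment maturation, LIG1, the ligase that seals Okazaki fragments, fell in KO at 48 h. It read 10.2, 21.7, 38.3 and 29.6 FPKM at 0 h and 0.357, 2.18, 7.41 and 7.07 at 48 h, without overlap, for a change of -2.75 ± 0.86 (adjusted p = 0.0452). The call was lost without KO 0 h replicate 1, 2 or 3 or KO 48 h replicate 0 or 1, with adjusted p up to 0.176, and held in 2 of 9 other settings. In WT its medians were 15.8 FPKM at 0 h and 4.14 at 48 h (-2.38 ± 0.86, adjusted p = 0.109). Exons of LIG1 share 179 bases with AC011466.3 on the other strand, which averaged 0.869 FPKM. FEN1 stayed between 45.2 and 83.3 FPKM in all 24 libraries, and its groups overlapped. The replication protein A genes RPA1, RPA2 and RPA3, which coat single-stranded DNA, were not called.

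The nucleotide supply genes gave 2 of the 5 calls in KO at 48 h. RRM2, the small subunit of ribonucleotide reductase whose level limits the enzyme in S phase, read 29.6, 25.8, 37.5 and 22.4 FPKM in KO at 0 h, 19.1, 11.2, 10.7 and 25.3 at 24 h, then 13.0, 11.3, 10.03 and 12 at 48 h. In WT it read 35.7, 29.5, 19.4 and 27.1 FPKM at 0 h, 16.2, 13.2, 16.1 and 15.1 at 24 h, then 22.7, 22.1, 25.4 and 12.1 at 48 h. The KO libraries at 48 h were all below those at 0 h, as were the WT libraries at 24 h, whereas WT at 48 h overlapped. The change in KO at 48 h was -1.26 ± 0.29 (adjusted p = 0.00560), and it held without each of the 8 libraries and in all 10 other settings. RRM2 (chromosome 2, 10120698 to 10131419) overlaps no opposite-strand exon. The changes at 24 h missed the threshold, at -0.83 ± 0.29 in WT (0.126) and -0.84 ± 0.29 in KO (0.0998).

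TYMS (chromosome 18, 657604 to 673578), thymidylate synthase, makes the thymidine nucleotide. Its KO libraries read 93.8, 49.6, 69.7 and 113 FPKM at 0 h, 68.9, 64.4, 60.7 and 67.9 at 24 h, then 40.7, 47.6, 40.2 and 41.2 at 48 h. The 48 h libraries lay below every KO library at 0 h and 24 h, by a narrow margin from the lowest at 0 h (49.6 against 47.6), and 3.99% of all genes tested were lower at 48 h than at 24 h in KO without overlap. In WT it read 56.7, 45.01, 74.4 and 69.7 FPKM at 0 h and 58.8, 72.8, 77.0 and 48.8 at 48 h, with overlap. The change in KO at 48 h was -0.87 ± 0.22 (adjusted p = 0.0102), and that in WT was 0.07 ± 0.22 (0.946). It held without each library and in 7 of 9 other settings, with adjusted p up to 0.0938. KO libraries at 48 h were also all below WT libraries at 48 h (-0.58 ± 0.22, adjusted p = 0.585), where 2.36% of all genes tested were lower without overlap. The difference between the 2 responses was -0.94 ± 0.31 (adjusted p = 0.568).

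RRM1, the large subunit of ribonucleotide reductase, read 11.5 to 26.5 FPKM in KO at 0 h and 0.601 to 14.7 at 48 h, with overlap (-1.95 ± 0.73, adjusted p = 0.103). TK1, thymidine kinase, averaged 6.40 ± 4.64 FPKM in KO at 0 h and 2.67 ± 2.36 at 48 h (adjusted p = 0.506). Summed over the 4 supply genes, KO went from 134 ± 31.5 FPKM at 0 h to 98.7 ± 9.003 at 24 h and 62.7 ± 7.28 at 48 h, and WT from 115 ± 7.56 to 108 ± 9.97 and 101 ± 16.1. The KO libraries at 48 h (56.2 to 73.0 FPKM) lay below all other 20 libraries, of which the lowest was at 84.2. TYMS made up most of this sum.

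**Figure D3:**
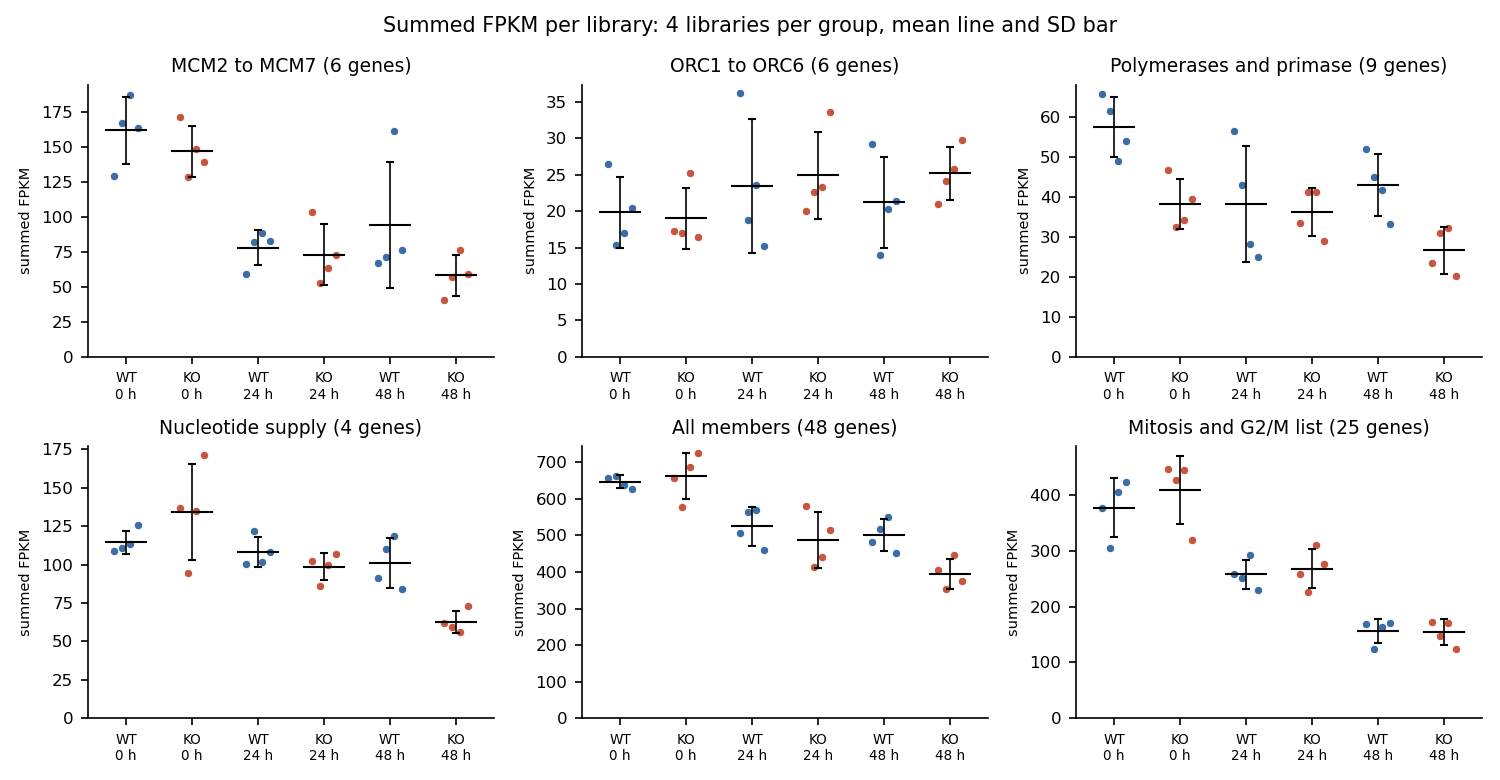
Summed FPKM per library (points), group mean (line) and SD (bar, n = 4) for MCM2 to MCM7, ORC1 to ORC6, polymerases and primase, nucleotide supply, all 48 members and the mitosis and G2/M list, WT in blue and KO in red. MCM sums drop from 128 to 187 FPKM at 0 h to 40.5 to 103 in all later libraries but 1, ORC sums stay between 13.98 and 36.3, and nucleotide supply in KO at 48 h lies at 56.2 to 73.0.

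Median changes of 3 classes against 0 h are given side by side, and differences between the classes were not tested. The 14 licensing genes had medians of -0.51 and -0.48 in WT (24 h, 48 h) and -0.13 and -0.395 in KO. Within that class, the 6 ring genes had medians of -1.46 and -1.06 in WT and -0.93 and -1.01 in KO. The 9 polymerase genes had medians of -0.66 and -0.29 in WT and 0.06 and -0.15 in KO, where single genes at 48 h ranged from -2.93 to 2.16. The 4 nucleotide supply genes had medians of -0.24 and -0.41 in WT and -0.63 and -1.28 in KO.

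The regulators CCNE1, CCNE2, E2F1 and UHRF1 were not called. CCNE2 was lower without overlap at 24 h in both genotypes, at 13.8 to 21.1 FPKM in WT at 0 h against 7.04 to 11.2 at 24 h, and 9.62 to 31.0 against 5.29 to 8.13 in KO (adjusted p = 0.261 and 0.171). E2F1, the transcription factor that drives S-phase genes, read 1.20 to 4.33 FPKM in WT at 0 h and 1.84 to 4.20 at 48 h, and 2.40 to 3.18 and 0.788 to 2.90 in KO. UHRF1, which guides maintenance of DNA methylation behind the fork, read 2.88 to 8.97 FPKM in WT and 0 to 2.63 in KO at 48 h, without overlap (-1.77 ± 0.64, adjusted p = 0.531).

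No member was called in WT or KO between 24 h and 48 h (0.122% and 0.516% of all genes tested were called), or between KO and WT at 0, 24 or 48 h (0.0985%, 0.0116% and 0.0638%). No member passed the test for a difference in response between the genotypes at 24 h or 48 h (0% and 0.0522% of all genes did). Those differences ranged over the members from -2.81 to 3.595 at 24 h and from -3.95 to 3.06 at 48 h, so equal responses were not shown. At an unadjusted limma p under 0.05, 2 members each passed between 24 h and 48 h in WT and in KO. The same unadjusted count was 2, 3 and 7 for KO against WT at 0, 24 and 48 h, and 3 for each of the 2 differences in response. Over all 17252 genes tested, 1248 and 1604 passed between 24 h and 48 h (WT, KO). For KO against WT 1194, 892 and 1131 did, and for the differences in response 950 and 1139. The smallest adjusted p of any member in these 7 comparisons was 0.190.

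Of 74 further genes of the pathway (control of G1/S, origin and fork factors, chromatin assembly and nucleotide metabolism), 70 were tested. Against 0 h, 1 was called lower in WT at 24 h, 3 in WT at 48 h, 3 in KO at 24 h and 5 in KO at 48 h, and 1 was called higher, in KO at 24 h. Over all genes tested, 2.6%, 4.22%, 3.51% and 6.42% were called lower in the same order, so these counts are near or below the background. E2F5, an E2F of the repressor class, fell in WT from 44.0 ± 8.71 FPKM at 0 h to 22.7 ± 3.89 at 24 h (-0.94 ± 0.26, adjusted p = 0.0405) and 17.0 ± 4.09 at 48 h (-1.36 ± 0.26, adjusted p = 0.00157). NASP, a histone chaperone, fell in KO from 48.0 ± 14.6 FPKM to 21.6 ± 4.45 at 24 h (adjusted p = 0.0309) and 17.5 ± 3.55 at 48 h (adjusted p = 0.00308). CLSPN, the fork protein claspin that relays the replication checkpoint, fell in KO from 9.33 ± 0.922 FPKM to 3.45 ± 0.563 at 24 h (adjusted p = 0.0397) and 2.75 ± 1.49 at 48 h (adjusted p = 0.00389). E2F6, another repressor, was called higher in KO at 24 h (3.40 ± 0.83, adjusted p = 0.0143), from 0 to 1.98 FPKM at 0 h to 7.04 to 7.997 at 24 h. In WT, E2F6 was at 5.23 to 7.71 FPKM at 0 h and averaged 5.67 ± 4.17 at 24 h, so that the KO level at 24 h was within the WT range at that time and the KO level at 0 h was below all WT libraries at 0 h. The remaining calls, named after their values were seen, were all lower. They were DNMT1, the maintenance DNA methyltransferase, at 48 h in WT (-1.68 ± 0.49, adjusted p = 0.0395) and in KO (-1.74 ± 0.49, adjusted p = 0.0235), IMPDH2 in WT at 48 h, NME1 in KO at 24 h, and CHAF1A and CCNA2 in KO at 48 h.

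In the list of 25 mitosis and G2/M genes, 0 were called in WT at 24 h, 4 in WT at 48 h, 2 in KO at 24 h and 6 in KO at 48 h, all lower, against 2.6%, 4.22%, 3.51% and 6.42% of all genes tested. At an unadjusted p under 0.05 the limma counts were 6 and 17 in WT (24 h, 48 h) and 5 and 16 in KO. Of all 17252 genes tested, 2733 and 3239 in WT and 3075 and 3748 in KO were under that p. The median changes of the 25 listed genes against 0 h were -0.53 and -1.21 in WT (24 h, 48 h) and -0.57 and -1.29 in KO. TPX2, which nucleates spindle microtubules, was called lower at 48 h in WT (-0.98 ± 0.28, adjusted p = 0.0325) and in KO (-1.23 ± 0.28, adjusted p = 0.00452). TOP2A, the topoisomerase that untangles sister chromatids, was called lower at 48 h in WT (-1.97 ± 0.53, adjusted p = 0.0250) and in KO (-1.91 ± 0.53, adjusted p = 0.0225). NUSAP1, a spindle protein, was called lower in WT at 48 h (-1.38 ± 0.40, adjusted p = 0.0359), and CENPE, a kinetochore motor, in KO at 24 h (-2.22 ± 0.55, adjusted p = 0.0160) and 48 h (-2.19 ± 0.55, adjusted p = 0.0107). CDC20, the activator of the anaphase-promoting complex, was called lower in KO at 48 h (-2.71 ± 0.66, adjusted p = 0.00857). CCNB1, cyclin B1, was called lower at 48 h than at 24 h in WT (-1.59 ± 0.32, adjusted p = 0.0436) and at 48 h than at 0 h in KO (-1.19 ± 0.32, adjusted p = 0.0166). The other calls were HMMR in WT at 48 h, AURKA in KO at 24 h and KIF20A in KO at 48 h.

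Rows annotated on the strand opposite a member carried higher values than the member in several cases. Annotation gave 24 such pairs for 17 members, of which 23 had a row and 21 were tested. In 8 of the pairs the opposite-strand gene had the higher mean: AC005037.1 opposite ORC2, MBD5 opposite ORC4, GSE1 opposite GINS2, AC009630.2 opposite GINS4, EIF4A2 opposite RFC4, AP4M1 opposite MCM7, INTS8 opposite CCNE2 and AC009118.2 opposite GINS3. Against 0 h, 2 of these 8 were called lower in WT at 24 h, 3 in WT at 48 h, 4 in KO at 24 h and 6 in KO at 48 h, while none of their 8 members was called. Of all 21 pairs tested, 4, 5, 5 and 9 opposite-strand genes were called lower in the same order. The percentages of all genes tested that were called lower in these comparisons were 2.6%, 4.22%, 3.51% and 6.42%, and of the 8097 genes that averaged 5 FPKM or more, 417, 699, 577 and 1045 were called lower. Which strand the fragments in these rows came from cannot be told from the deposited values.

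AC009630.2, an antisense row over GINS4, averaged 629 FPKM against 3.05 for GINS4. In WT its libraries read 1120, 1094, 897 and 989 FPKM at 0 h, 471, 568, 465 and 502 at 24 h, then 434, 440, 362 and 422 at 48 h. In KO they read 1085, 1172, 1050 and 1144 FPKM at 0 h, 516, 516, 481 and 454 at 24 h, then 262, 222, 243 and 191 at 48 h. Genotypes overlapped at 0 h and 24 h, and all KO libraries were below all WT libraries at 48 h (-0.86 ± 0.11, adjusted p = 2.0e-04), a call lost without a variance trend (adjusted p = 0.288) and with only the groups compared (adjusted p = 0.0897). The fall from 0 h to 48 h was larger in KO by a test of the difference (-0.98 ± 0.15, adjusted p = 0.00413), a call that held in 8 of 9 other settings and was lost without a variance trend (adjusted p = 0.598). GINS4 itself was not called, at -1.23 ± 1.05 in KO at 48 h (adjusted p = 0.557).

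ENOSF1, a gene whose exons share 967 bases with TYMS on the other strand, was examined after its values had been seen. It averaged 108 ± 15.2 FPKM in WT at 0 h, 40.2 ± 5.10 at 24 h and 47.1 ± 9.86 at 48 h, and in KO 119 ± 5.32, 31.4 ± 1.81 and 28.1 ± 5.48. All later libraries lay below all those at 0 h in both genotypes, and the 4 changes were -1.41, -1.20, -1.91 and -2.09 (WT at 24 h and 48 h, then KO; adjusted p from 1.2e-04 to 3.3e-08). TYMS passed the test in 1 of those 4 comparisons, KO at 48 h. AP4M1, whose exons share 392 bases with MCM7, averaged 222 ± 23.4 FPKM in WT at 0 h and 134 ± 24.0 at 48 h (-0.74 ± 0.14, adjusted p = 0.00186), and in KO 234 ± 11.4 and 134 ± 17.8 (-0.81 ± 0.14, adjusted p = 4.3e-04), while MCM7 was not called in either. With quantile scaling the AP4M1 changes were -0.41 in WT and -0.36 in KO, where the KO call was lost (adjusted p = 0.0557), and with only the groups compared the WT call was lost (adjusted p = 0.0524). INTS8, which shares 1629 bases with CCNE2, was called lower at 48 h in both genotypes (-0.77 ± 0.20 in WT, adjusted p = 0.0174, and -1.28 ± 0.20 in KO, adjusted p = 8.3e-05). The WT call of INTS8 was lost with quantile scaling, without a variance trend and without WT 0 h replicate 0 (adjusted p = 0.0613, 0.0572 and 0.0512).

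**Figure D4:**
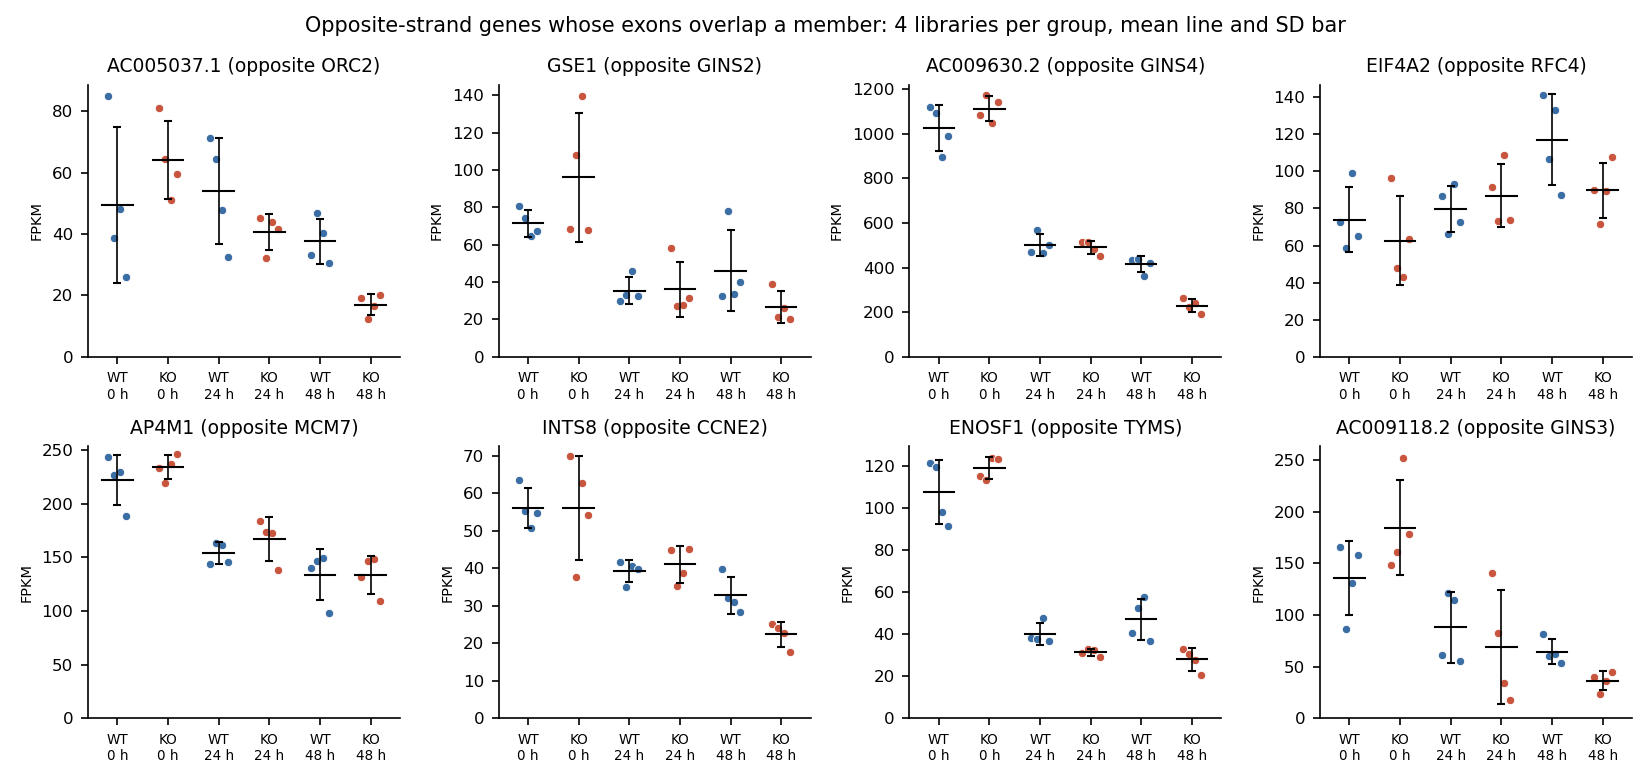
FPKM per library (points), group mean (line) and SD (bar, n = 4) of 8 opposite-strand genes whose exons overlap a member named in brackets, WT in blue and KO in red. ENOSF1, whose mean was not above that of TYMS, is included and MBD5 is left out. MBD5 had changes of 2.38 and 1.63 in WT (24 h, 48 h) and 0.27 and -0.02 in KO (SE 1.145 each), and was not called. AC009630.2 goes from 897 to 1172 FPKM at 0 h to 191 to 262 in KO at 48 h, ENOSF1 from 91.4 to 124 at 0 h to 20.5 to 58.0 later, and EIF4A2 is not lower at the later times.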

How the data were processed

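RNA of 24 Huh7 libraries was prepared with a directional mRNA kit, per the labels' protocols. The authors deposited 1 table of FPKM values per gene, and the submitters' processing notes name STAR, Cufflinks, Cuffdiff and GRCh38 without versions, roles or a strand setting. All 24 value columns were mapped to samples by their titles. Of 58024 Ensembl identifiers, 57375 matched GENCODE v29 without the version number, and 45 chromosome Y copies were left out of the fit.

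Deposited FPKM values were put on the log2(FPKM + 0.5) scale, on which fold changes of low genes are understated, and the 17252 genes that averaged 0.5 FPKM or more were tested. One limma fit (3.58.1, R 4.3.3) of 6 group means with a variance trend gave 11 comparisons with Benjamini-Hochberg adjustment over all genes tested. The fit was checked on simulated data. Fragments per library were estimated from the steps between low FPKM values. Exon overlaps came from GENCODE v29, and promoters from RefSeq (GRCh38.p14).

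The members and all gene lists were chosen with earlier results of these data known. Members planned to be given library by library were those called in any comparison and the highest of each role group. Called members were so given at least for the groups of each call. The highest members without a call were given as ranges or means. Of other pathway and mitosis genes together, up to 4 called per comparison were named by adjusted p (the others called were added after their values were seen), and opposite-strand genes where above their member. Alternatives were pseudocounts of 0.1 and 1, no filter, a filter of 2 FPKM, median-of-ratios and quantile scaling, only the groups compared, no variance trend, a replicate block, only genes without opposite-strand exon overlap, and leaving out each library. Groups were called non-overlapping where all 4 libraries lay beyond all 4 of the other. Figures were drawn with matplotlib 3.10.9.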

Additional observations from a re-analysis of the deposited data

Results flagged for a closer look

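Of 126 sets of 4 library values examined, 9 held a library far from the other 3 by Dixon's criterion (gap over range above 0.829), where chance gives about 1 in 20. TYMS in KO at 48 h had 1 library at 47.6 FPKM with the others at 40.2 to 41.2. ORC5 in WT at 0 h had 1 library at 3.19 FPKM with the others listed at 0. RFC5 was set apart in 3 groups, with a low library of 18.9 FPKM in KO at 0 h (others 38.9 to 42.7), a high one of 46.3 in WT at 24 h (others 33.8 to 35.4) and a low one of 25.1 in KO at 48 h (others 34.8 to 35.6). PRIM1 in WT at 24 h had 1 library at 20 FPKM with the others at 4.93 to 7.42. Among summed levels, the licensing genes in WT at 48 h had 1 library at 189 FPKM (others 97.2 to 113), the helicase activation genes in KO at 24 h had 1 at 17.3 (others 31.2 to 31.8), and the clamp and loader genes in WT at 0 h had 1 at 104 (others 60.2 to 67.2).

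The response of AC009630.2, the antisense row over GINS4, from 0 h to 48 h differed between the genotypes by -0.98 on the log2 scale (KO minus WT, adjusted p = 0.00413 by limma). It held without each of the 16 libraries in turn, and its adjusted p reached 0.598 without a variance trend.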

How the results depend on the processing

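No called change of a member or of a named opposite-strand gene reversed under the alternatives run. Only changes that had passed the test were examined for this, and such changes were unlikely to reverse. Changes without a call, among them all those of MBD5 and EIF4A2, were not examined. The balance of calls over all genes did turn. Counts of called members that moved by over 1.5 times were as follows. In WT at 24 h, 3 became 1 with only genes free of opposite-strand overlap and 1 with only the groups compared. In WT at 48 h, 2 became 1 with a pseudocount of 0.1, 1 without a filter, 1 with quantile scaling, and 0 with median-of-ratios scaling, without a variance trend, with only genes free of overlap, and with only the groups compared. In KO at 24 h, 2 became 1 without a filter, with quantile scaling, without a variance trend and with only genes free of overlap, and 0 with only the groups compared. In KO at 48 h, 5 became 3 with quantile scaling and 2 with only genes free of overlap, where fewer members are tested. TYMS was called between 24 h and 48 h in KO with only the groups compared, the 1 call of a member in that comparison. Leaving out a library gave 1 to 3 calls in WT at 24 h, 0 to 2 in WT at 48 h, 1 to 3 in KO at 24 h and 3 to 6 in KO at 48 h, and 0 in the other 7 comparisons. The causes of these moves were not tested unless stated.

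Libraries with the same replicate number did not deviate together (4 of 60 pairs with a correlation above 0.1, median 0.0078, and 7 of 24 libraries closest to their own number). With the replicate number as a block, the counts were 2, 2, 2 and 5 (WT at 24 h and 48 h, KO at 24 h and 48 h), with GINS1 in place of LIG1 in the last, and 0 in the other 7 comparisons. The balance of all calls moved with the scaling and with the genes tested. In WT at 24 h, 252 genes were higher and 449 lower, against 312 and 362 with median-of-ratios and 296 and 248 with quantile scaling. In KO at 48 h the same pairs were 587 and 1108, 814 and 848, and 747 and 677. The median of all genes then moved by up to 0.11. In WT at 48 h the pairs were 443 and 728, 594 and 585, and 544 and 390, and in KO at 24 h 368 and 605, 470 and 496, and 463 and 357. With only genes free of opposite-strand overlap (9213 tested), higher calls outnumbered lower ones in all 4 comparisons, at 74 and 30 in WT at 24 h, 160 and 60 in WT at 48 h, 137 and 59 in KO at 24 h, and 262 and 117 in KO at 48 h. With members at a median of 5.73 FPKM, where 1 fragment on 3 kb is 0.453 to 0.84 FPKM, values of the low members rest on few fragments; detection by depth was not tested.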
